A study of Mus musculus with 14 samples.

Results

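The Hippo pathway and the Tead transcription factors were examined through 10 genes in blastocysts cloned from cumulus cells and in blastocysts derived by in vitro fertilization (IVF). The genes were *Yap1*, *Wwtr1* (Taz), *Tead1*, *Tead2*, *Tead3*, *Tead4*, *Lats1*, *Lats2*, *Nf2* and *Amotl2*. They were chosen by name, and their probes were those that the array design assigns to these names, with *Yap1* written as Yap. This gave 17 of the 41174 gene probes on the array and 10 of the 19512 genes that could be matched to a current symbol. *Lats2* had 4 probes, *Nf2* had 3, *Wwtr1* and *Tead2* had 2 each, and the other 6 genes had 1 each. A gene with several probes is given first by its brightest probe over all 14 arrays.

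Total RNA of 14 blastocyst samples, labeled E4.0, was amplified, labeled with Cy3 and hybridized to 1-color Agilent whole mouse genome arrays. They were 4 clones for which the donor cell was fused with the oocyte (fusion clones), 4 for which the donor nucleus was injected (injection clones), and 6 IVF-derived embryos, 3 of them male and 3 female. All clones were female and came from cumulus cells, the somatic cells around the ovulated oocyte, whereas the IVF-derived embryos had no donor cell. All embryos grew in KSOM medium, and the controls are described as matched in sex and genotype. The study's methods describe the nuclear donors as mice of a BDF1 background that were heterozygous for an *Xist* knockout, but the labels of the blastocysts give no genotype. The extraction protocol in the blastocyst labels names epiblasts or extraembryonic regions of single embryos, so that it is unclear whether whole blastocysts were used. It names no separate cultures or days, so that the tests measure only the spread between these samples, part of which may be technical.

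In the blastocyst, the Hippo pathway separates the outer trophectoderm from the inner cell mass. Inner cells keep the kinases Lats1 and Lats2 active through Nf2 and angiomotin proteins at their cell contacts, and the kinases hold the coactivators Yap1 and Wwtr1 out of the nucleus by phosphorylation. In outer, polarized cells the coactivators enter the nucleus, join Tead4 and switch on the trophectoderm genes *Cdx2* and *Gata3*, while *Sox2* is kept off. The pathway acts mostly through phosphorylation and the location of the proteins, which an array does not measure.

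Tead proteins bind the letters GGAATG, or CATTCC on the other strand. Both spellings were searched in the 250 bases before each gene start of the RefSeq promoter table (GRCm38.p6), which holds 8 of the 10 genes and has no entry here for *Tead1* and *Tead4*. The letters stood before at least 1 start of 4 of these 8 genes, *Yap1*, *Wwtr1*, *Tead3* and *Amotl2*, and of 3880 of all 27025 genes in the table (14.4%). Counted by start, 4153 of all 32851 windows held them (12.6%). The windows of *Yap1*, *Wwtr1* and *Amotl2* are shown because these were the members whose clone values lay farthest from those of the female embryos among genes well above background on all arrays, and that of *Ccn1* because it is a well-known target of Yap1. They lie at chr9:8004597-8004846 (minus strand), chr3:57575911-57576160 (minus strand), chr9:102717554-102717803 (plus strand) and chr3:145649986-145650235 (minus strand). Each is written 5′ to 3′ up to the base before the start, with the searched letters in capitals.

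Yap1: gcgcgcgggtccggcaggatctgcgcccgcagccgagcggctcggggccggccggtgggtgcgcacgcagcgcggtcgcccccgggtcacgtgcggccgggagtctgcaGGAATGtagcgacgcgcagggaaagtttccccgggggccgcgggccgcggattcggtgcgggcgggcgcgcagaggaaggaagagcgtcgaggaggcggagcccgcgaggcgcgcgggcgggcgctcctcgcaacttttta

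Wwtr1: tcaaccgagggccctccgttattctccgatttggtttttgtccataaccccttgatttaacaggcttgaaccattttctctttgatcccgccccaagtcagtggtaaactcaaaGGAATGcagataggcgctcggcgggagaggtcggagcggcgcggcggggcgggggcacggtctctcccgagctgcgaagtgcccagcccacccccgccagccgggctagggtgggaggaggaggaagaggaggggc

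Amotl2: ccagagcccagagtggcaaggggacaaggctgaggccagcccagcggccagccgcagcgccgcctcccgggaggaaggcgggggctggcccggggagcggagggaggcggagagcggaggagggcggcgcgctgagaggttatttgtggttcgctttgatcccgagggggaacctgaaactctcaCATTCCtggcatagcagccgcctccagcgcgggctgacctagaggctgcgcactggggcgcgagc

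Ccn1: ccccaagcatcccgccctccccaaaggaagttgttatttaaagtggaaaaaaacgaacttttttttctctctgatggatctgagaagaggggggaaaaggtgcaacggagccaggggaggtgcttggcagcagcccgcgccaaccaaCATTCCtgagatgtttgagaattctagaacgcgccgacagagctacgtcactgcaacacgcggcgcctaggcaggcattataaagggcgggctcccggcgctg

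The match began 141 bases before the start of *Yap1*, 136 before that of *Wwtr1*, 65 before that of *Amotl2* and 103 before that of *Ccn1*. *Yap1* and *Wwtr1* carried GGAATG on the strand of the gene, and *Amotl2* and *Ccn1* carried CATTCC. No match was present in the windows of *Lats1*, *Lats2*, *Nf2* and *Tead2*, nor in those of *Cdx2* and *Gata3*. A match describes letters only and says nothing of whether a Tead protein was bound in these embryos.

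Per array, 57.4% to 65.2% of the spots exceeded the background clearly by the scanner software's own test, called well above background here. Each group lay on a slide of its own. The clones were scanned on another scanner and read with another version of the extraction software than the IVF-derived embryos, so that slide, scanner, version and origin cannot be told apart between clones and IVF-derived embryos. Fusion and injection clones shared scanner and version but not the slide, and so did male and female embryos. Spots with a processed signal below 0 numbered 0 on each clone array and 6790 to 9981 on each array of the IVF-derived embryos. The part of this in differences of dim probes was not tested. The label of blastocyst was checked against marker genes. All 8 epiblast genes measured and all 14 trophectoderm genes measured on every array were well above background on all arrays. The trophectoderm gene *Hand1* lacked a value in a fusion clone and is not among them. It was well above background on 3 of 4 injection clones, 1 of 3 females and no male. *Gata2*, without values in the IVF-derived embryos, is not among them either. Of 13 cumulus cell genes, 4 to 8 were well above background per array. *Lhcgr*, *Has2*, *Ptx3*, *Ptgs2*, *Inhba* and *Tnfaip6* were so on at most 1 of the 14 arrays. *Inha* was so on 6, *Cyp11a1* on 8, *Star* on 9, *Fshr* on 10, *Cyp19a1* on 11, and *Amhr2* and *Foxl2* on all 14. The log2 intensity of *Amhr2* was 9.82 to 11.31 in fusion clones and 10.49 to 11.20 in injection clones. It was lower in females (7.97 to 9.585) and males (8.11 to 9.37). *Foxl2* went the other way, at 5.29 to 5.98 and 5.46 to 5.76 in the clones and 6.18 to 6.45 in females.

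Values are log2 intensities after quantile normalization, on which a difference of 1 is a doubling. Testing with limma took in each probe that any array of either group showed well above background, and a probe was called at a Benjamini-Hochberg adjusted p below 0.05 over all probes tested. Both clone comparisons share the same 3 female controls. Against female embryos, 1 of the 9 members tested was called in fusion clones, *Yap1*, which was higher. Over the whole array 9.47% of 32408 probes were called in that comparison, 4.33% higher and 5.14% lower, so that the members' count was near the background. In injection clones, none of the 10 members was called by limma, against 3.61% of 32788 probes. An unadjusted p below 0.05 was reached by 4 members in each comparison, against 27.2% of probes for fusion clones and 23.2% for injection clones. The study's methods name a significance level and a 2-fold filter but no adjustment of p-values. Read here as an unadjusted p below 0.05 with a 2-fold difference, this threshold of the methods was reached by 3 members in each comparison, against 17.1% and 14.1% of probes. In fusion clones both of these counts include *Lats1*. It entered the test through clone arrays only, with all females at the floor, so that its place in them depends on the floor. The groups did not overlap for 3 members in each comparison, against 25.8% of probes for fusion clones and 20.9% for injection clones. The median log2 difference of the members was 0.16 for fusion clones and 0.02 for injection clones, beside −0.12 and −0.08 over all probes.

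**Figure D1:**
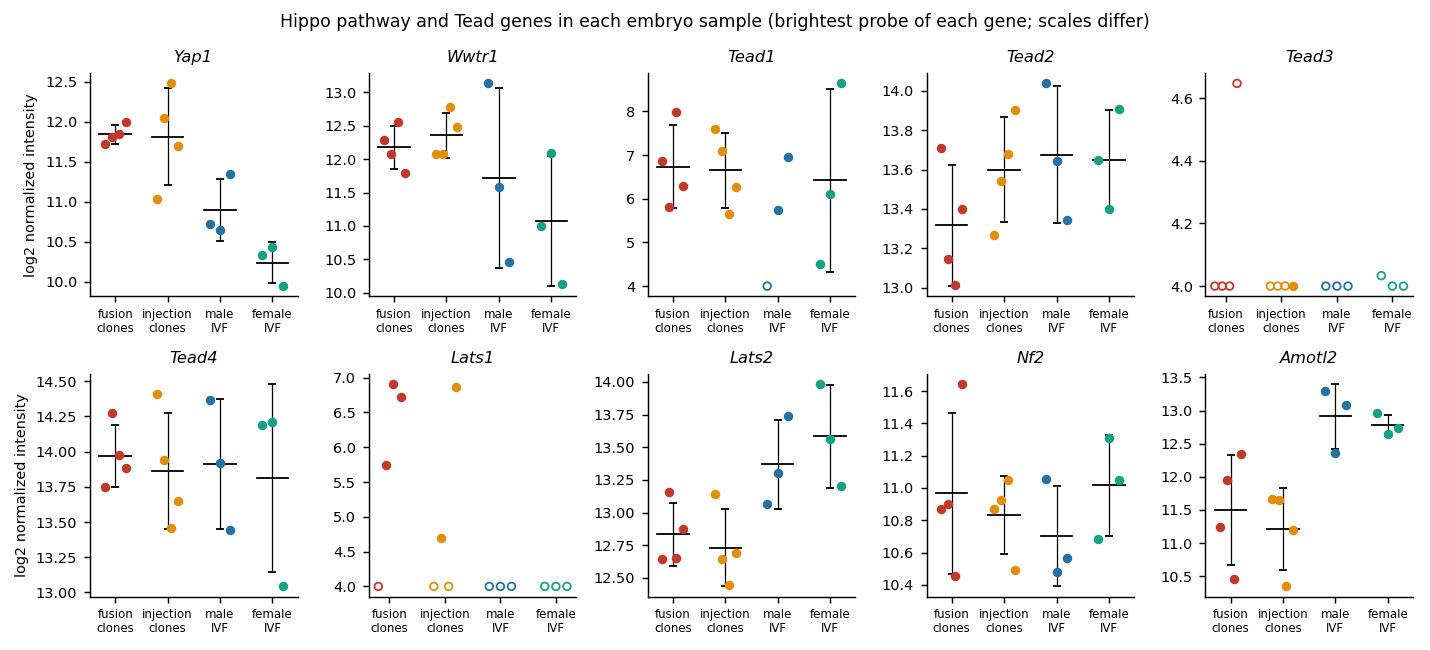
Log2 normalized intensity (y axis, a scale of its own in each panel) of the brightest probe of the 10 genes in each of the 14 samples, by group (x axis). Filled points were well above background and open points were not, and lines give the mean and SD of groups in which all arrays were. The 8 clones lie above the 3 female embryos for *Yap1* and below them for *Lats2* and *Amotl2*, while the groups overlap for *Tead2*, *Tead4* and *Nf2*.

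*Yap1* encodes the coactivator that carries the signal of the pathway to the Tead factors. It stood at 11.72, 11.81, 11.85 and 11.995 in the fusion clones. It stood at 11.04, 12.04, 12.48 and 11.69 in the injection clones. All clones lay above the female embryos, which stood at 10.34, 10.43 and 9.94, and the injection clones were more scattered (SD 0.61) than the fusion clones (SD 0.12). The male embryos lay between, at 10.72, 10.64 and 11.35, and the highest of them exceeded the lowest injection clone. *Yap1* was 1.60 higher in fusion clones than in female embryos (3.04-fold; SE 0.18, n = 4 and 3; adjusted p = 0.00764 by limma). In injection clones the difference was 1.57 (2.98-fold; SE 0.36, n = 4 and 3; adjusted p = 0.0671), which did not pass. It passed with 5 of the 20 alternatives tried, among them 1 fit of all 4 groups (adjusted p = 0.0109) and all 6 IVF-derived embryos as controls (difference 1.24, adjusted p = 0.0496), and the adjusted p ranged from 0.0109 to 0.227 over them.

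The order of the *Yap1* means was fusion clones (11.84), injection clones (11.81), male embryos (10.90) and female embryos (10.24). The first pair differed by 0.03 (95% confidence interval −0.66 to 0.72), well inside the spread between samples. The last pair differed by 0.66 (−0.08 to 1.41, adjusted p = 0.65), with all 3 males above all 3 females. Summed over the 14 trophectoderm genes measured on all arrays, the log2 level of this lineage was 19.77 to 20.08 in fusion clones, 19.58 to 19.99 in injection clones and 20.05 to 20.32 in female embryos. This sum rests mostly on the brightest genes, such as *Krt8* and *Krt18*. The mean log2 value of the same genes was 13.95 to 14.71 in fusion clones and 13.98 to 14.42 in injection clones. In female embryos it was 14.85 to 15.33, above all clones. *Hand1*, not among these genes, went the other way. Its mean was 8.04 in fusion clones, 8.50 in injection clones and 5.16 in females, where it was well above background on 1 of 3 arrays. The part of this lineage in the *Yap1* difference was not tested, and in bulk RNA fewer cells of a type and less RNA per cell cannot be told apart.

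*Wwtr1* encodes Taz, the close relative of Yap1 that can act in its place. Its brightest probe stood at 12.29, 12.08, 12.55 and 11.79 in fusion clones and at 12.08, 12.08, 12.78 and 12.48 in injection clones. The female embryos stood at 11.003, 12.09 and 10.14, and the male embryos at 13.13, 11.58 and 10.46. Female replicate 2 lay within the range of the clones, and the IVF-derived embryos were far more scattered (SD 1.35 in males and 0.98 in females) than the clones (SD 0.32 and 0.34). The differences from female embryos were 1.1 in fusion clones (SE 0.47, n = 4 and 3; adjusted p = 0.188) and 1.28 in injection clones (SE 0.47, n = 4 and 3; adjusted p = 0.18), neither past the threshold. Without female replicate 3, the lowest of them, they were 0.63 and 0.81.

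The other *Wwtr1* probe, A_51_P502608, gave larger differences in the same direction. It stood at 9.0 to 11.25 in fusion clones, 7.49 to 11.12 in injection clones and 7.46 to 9.87 in male embryos. The female embryos stood at 7.36, 7.03 and 4.0, the last of them at the floor and not well above background, so that all clones and all males lay above them. The difference was 3.97 in fusion clones (SE 0.95, n = 4 and 3; adjusted p = 0.0506) and 3.32 in injection clones (adjusted p = 0.156). For fusion clones the adjusted p ranged from 0.0249 to 0.178 over the alternatives and was below 0.05 in 5 of them. Males exceeded females by 2.74 (adjusted p = 0.643).

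The 4 *Tead* genes encode the DNA-binding partners of Yap1 and Taz, of which Tead4 is the one needed for trophectoderm. *Tead4* stood at 13.75, 14.27, 13.98 and 13.88 in fusion clones and at 14.41, 13.94, 13.46 and 13.65 in injection clones. The male embryos stood at 14.37, 13.92 and 13.45, and the female embryos at 14.19, 14.21 and 13.04. All groups overlapped, and the group means ran only from 13.81 in females to 13.97 in fusion clones. The difference from female embryos was 0.16 in fusion clones (95% confidence interval −0.65 to 0.96) and 0.05 in injection clones (−0.87 to 0.97). These arrays do not exclude differences inside these intervals.

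*Tead2*, a Tead factor already present in early cleavage embryos, gave similar values in all groups. Its brightest probe stood at 13.01 to 13.71 in fusion clones, 13.27 to 13.91 in injection clones, 13.34 to 14.04 in males and 13.40 to 13.91 in females, all overlapping. The differences from females were −0.33 (−0.90 to 0.23, adjusted p = 0.42) and −0.05 (−0.56 to 0.46, adjusted p = 0.899). Its dimmer probe gave −0.54 and −0.41, with adjusted p = 0.324 and 0.526.

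The *Tead1* probe chosen by the rule was dim and scattered. It stood at 5.81 to 7.99 in fusion clones, 5.64 to 7.59 in injection clones, 4.0 to 6.95 in males and 4.5 to 8.64 in females, with an SD of 2.09 in females. Its differences from females were 0.32 (95% confidence interval −2.12 to 2.76) and 0.23 (−2.24 to 2.70), so that this probe leaves the level of *Tead1* unresolved. Another probe that the older name 2610024B07Rik assigns to *Tead1*, A_51_P214423, was bright, at 15.13 to 15.36 in fusion clones and 15.06 to 15.57 in injection clones. The females stood there at 15.57, 14.23 and 15.53, and the differences were 0.14 (adjusted p = 0.813) and 0.20 (adjusted p = 0.758). *Tead3* was well above background on 1 of the 14 arrays, injection clone 4, where its value still lay at the floor of 4.0, and no fold can be given.

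The kinases Lats1 and Lats2 phosphorylate Yap1 and Taz, and *Lats2* is itself switched on by Yap1 in many cells. The brightest *Lats2* probe stood at 12.64, 13.16, 12.65 and 12.88 in fusion clones and at 13.14, 12.65, 12.44 and 12.69 in injection clones. All clones lay below the female embryos (13.99, 13.56 and 13.20), but the males (13.06, 13.30 and 13.74) overlapped with the clones. The difference from females was −0.75 in fusion clones (SE 0.25, n = 4 and 3; adjusted p = 0.113) and −0.85 in injection clones (SE 0.26, n = 4 and 3; adjusted p = 0.118), neither past the threshold.

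The *Lats2* probes did not move together. A_51_P331525, nearly as bright, gave −0.58 in fusion clones (adjusted p = 0.167) and −0.57 in injection clones (adjusted p = 0.238). A_52_P425064, which the array design ties to an alternatively spliced *Lats2* transcript, gave 0.53 (adjusted p = 0.237) and 0.68 (adjusted p = 0.302), the opposite sign. A_51_P133349 was dim and gave 0.07 and 0.44. The spliced-transcript probe stood at 10.07 to 10.32 in fusion clones and at 9.13 to 10.07 in females. The lowest fusion clone and the highest female were nearly equal (10.0705 and 10.0678). The injection clones, at 9.71 to 10.73, overlapped with the females. No *Lats2* probe was called in any comparison, and with the mean over the 4 probes the difference was −0.19 in fusion clones and −0.08 in injection clones.

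The *Lats1* probe was well above background on 3 of 4 fusion clones and 2 of 4 injection clones, and on none of the 6 IVF-derived embryos. The fusion clones stood at 4.0, 5.75, 6.91 and 6.72 and the injection clones at 4.0, 4.69, 4.0 and 6.87, with all IVF-derived embryos at the floor. With these arrays kept at the floor, the fitted difference from females was 1.85 in fusion clones (adjusted p = 0.154) and 0.89 in injection clones (adjusted p = 0.5), neither past the threshold, and their size depends on the floor. Without fusion replicate 1, whose value was at the floor, the difference in fusion clones was 2.46 with adjusted p = 0.0301 by limma. The females lay at the floor with almost no spread, so that this p depends on the floor too. A second probe, which the older name AW208599 assigns to *Lats1*, was well above background on all arrays and gave 0.00 in fusion clones (95% confidence interval −0.67 to 0.68) and 0.50 in injection clones (adjusted p = 0.159).

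**Figure D2:**
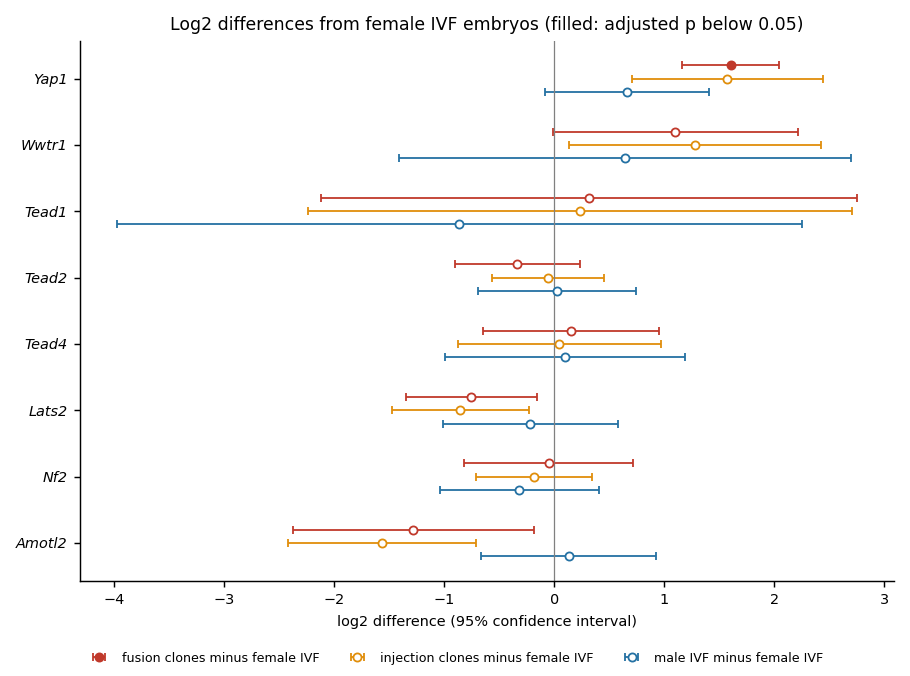
Log2 difference from female IVF-derived embryos (x axis) of 8 genes (y axis, brightest probe) in fusion clones, injection clones and male embryos, with 95% confidence intervals. A filled point passed an adjusted p of 0.05, which only *Yap1* in fusion clones did, at 1.60, and *Lats1* and *Tead3* are left out because they were not well above background in some groups.

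Nf2 and the angiomotin proteins act at cell contacts upstream of the kinases. The brightest *Nf2* probe stood at 10.45 to 11.65 in fusion clones, 10.49 to 11.05 in injection clones, 10.48 to 11.05 in males and 10.69 to 11.31 in females, all overlapping. Its differences from females were −0.05 (95% confidence interval −0.82 to 0.72) and −0.18 (−0.71 to 0.34). A dimmer probe, A_52_P555913, gave 0.83 (adjusted p = 0.303) and 1.44 (adjusted p = 0.198), and the third, A_52_P124665, was well above background on 3 of 14 arrays.

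*Amotl2* encodes an angiomotin that binds Yap1 and is also induced by it in many cells. It stood at 11.24, 11.95, 10.46 and 12.35 in fusion clones and at 11.66, 11.65, 10.35 and 11.20 in injection clones. The females stood at 12.96, 12.65 and 12.73, and the males at 13.29, 12.36 and 13.09. All 8 clones lay below all 6 IVF-derived embryos, although the highest clone and the lowest male were nearly equal. The difference from females was −1.28 in fusion clones (SE 0.46, n = 4 and 3; adjusted p = 0.133) and −1.56 in injection clones (SE 0.35, n = 4 and 3; adjusted p = 0.0658). Neither passed, but with all 6 IVF-derived embryos as controls both did, at −1.35 (adjusted p = 0.0409) and −1.63 (adjusted p = 0.0139). *Amot*, the angiomotin best studied in inner cells, differed by −0.20 (adjusted p = 0.59) and −0.19 (adjusted p = 0.704).

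The direct comparison of fusion with injection clones asked whether the way of nuclear transfer is reflected in these genes. None of the 10 members was called by limma, and none had an unadjusted p below 0.05 or groups that did not overlap (3.32% of probes did not). Over the array 0% of 32254 probes were called, with 1988 probes (6.16%) at an unadjusted p below 0.05. Among the members well above background on all arrays, the differences ran from −0.28 for *Tead2* (95% confidence interval −0.76 to 0.19) to 0.28 for *Amotl2* (−0.85 to 1.42). A further *Tead1* probe, A_51_P473633, also under the older name, was dim and stood at 6.67 to 7.64 in fusion clones and 4.70 to 6.40 in injection clones, which did not overlap (difference 1.63, adjusted p = 0.629). Male against female embryos also gave no called member of 8 tested by limma, none at an unadjusted p below 0.05 and 1, *Yap1*, with groups that did not overlap. Over the array 0.0594% of 31990 probes were called, 19 in all, 7.76% had an unadjusted p below 0.05 and 12.9% did not overlap. With the replicate number as a block, 0 probes were called by limma, 2526 had an unadjusted p below 0.05 and the *Yap1* difference was 0.66 (SE 0.37, adjusted p = 0.663). The other male and female values given here come from the fit without the block.

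The wider pathway was read through lists of upstream kinases and adaptors (15 genes), junction and polarity proteins (20), other Tead cofactors of the Vgll family (4) and known targets of Yap1 and Tead (23). Among the upstream genes, 1 of 15 was called in fusion clones, *Taok3*, and none by limma in injection clones, against 9.47% and 3.61% of all probes. An unadjusted p below 0.05 was reached by 6 and 3, against 27.2% and 23.2% of all probes. *Taok3*, of a kinase family that activates the kinases above Lats, stood at 11.43, 10.72, 10.21 and 10.05 in fusion clones, and the females stood at 8.17, 9.43 and 8.01. It was 2.06 higher (SE 0.48, adjusted p = 0.0465), but with the mean over all its probes the difference was 0.51 (adjusted p = 0.432), and the call was lost on leaving out any of the 7 arrays except female replicate 2. The median difference of this list was −0.17 and −0.14, next to that of all probes.

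Among the junction and polarity genes, 1 of 19 tested was called in each clone comparison, against 9.47% and 3.61% of all probes. It was *Rock2* in both. An unadjusted p below 0.05 was reached by 8 genes in each, against 27.2% and 23.2% of all probes. The groups did not overlap for 8 and 9 genes, against 25.8% and 20.9%. *Rock2* encodes a kinase of the actomyosin cortex, on which the polarity of outer cells and the entry of Yap1 into their nuclei depend. It stood at 12.02, 10.88, 11.71 and 11.25 in fusion clones and at 11.97, 11.99, 11.59 and 11.20 in injection clones. All clones lay above all IVF-derived embryos, with females at 10.45, 9.90 and 9.49 and males at 10.36, 9.45 and 10.003. *Rock2* was 1.52 higher in fusion clones (SE 0.36, adjusted p = 0.0477) and 1.74 higher in injection clones (SE 0.31, adjusted p = 0.0433). Both calls lay just under the threshold. The first was lost without any 1 of its 7 arrays (adjusted p up to 0.117), and the second without any except injection replicate 4 (adjusted p up to 0.108), with differences of 1.29 to 1.99 throughout. The Vgll cofactors had no call by limma. An unadjusted p below 0.05 was reached by 1 of 3 tested in fusion clones and 0 in injection clones, against the same 27.2% and 23.2%. The former was *Vgll1*, which stood lower, at a mean of 4.96 in fusion clones (SD 0.80, well above background on 3 of 4 arrays) and 7.04 in females (SD 0.92), a difference of −2.08 (adjusted p = 0.0744). *Vgll4*, a repressor of Tead, was well above background on 3 of 4 arrays of each clone group and on no female array, with fitted differences of 1.26 (adjusted p = 0.2) and 1.01 (adjusted p = 0.385) whose size depends on the floor.

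**Figure D3:**
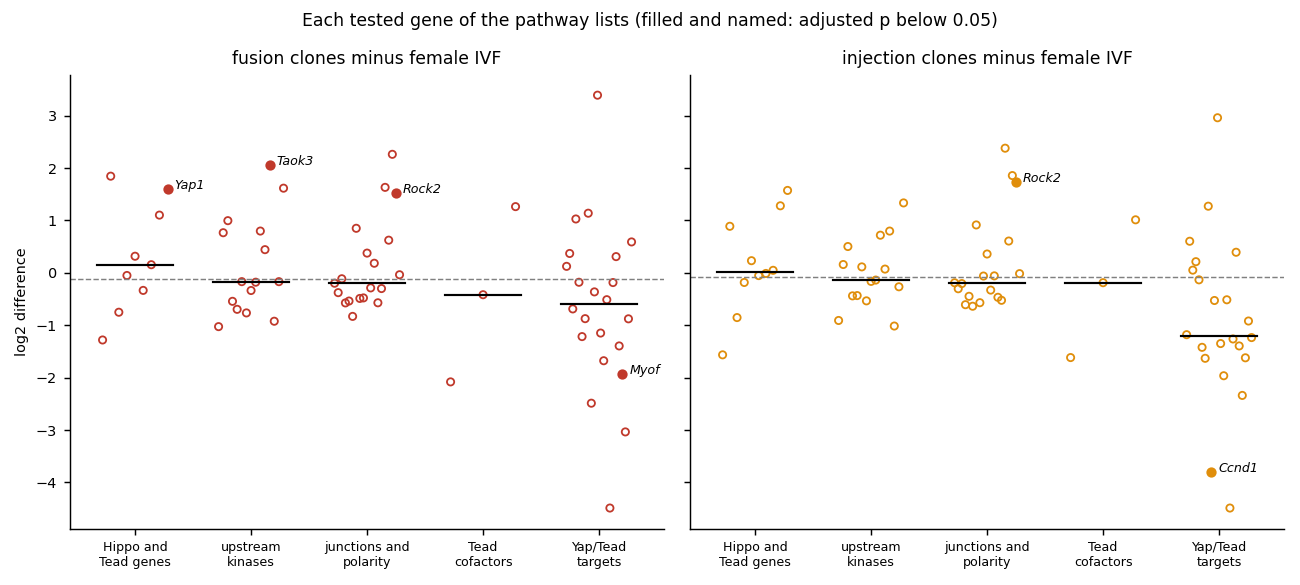
Log2 difference from female embryos (y axis) of each tested gene of the members and of 4 pathway lists (x axis), in fusion clones (left) and injection clones (right). Black lines give the median of a list, the dashed line that of all probes, and filled points passed an adjusted p of 0.05, as *Yap1*, *Taok3*, *Rock2* and *Myof* did on the left and *Rock2* and *Ccnd1* on the right.

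Of the Yap1 and Tead targets, 1 of 22 tested was called in each clone comparison, in both cases lower, against 9.47% and 3.61% of all probes called. An unadjusted p below 0.05 was reached by 7 and 8, against 27.2% and 23.2% of all probes. The median difference of the list was −0.60 in fusion clones and −1.21 in injection clones, beside −0.12 and −0.08 over all probes. The injection median lay between *Ankrd1* and *Tgfb2*. Both stood at the floor on all injection clones and were well above background on 1 female each. The fusion median lay between *Asap1* and *Fjx1*, and *Fjx1* was not well above background on any fusion clone. Both medians therefore depend in part on the floor. *Foxf2* and *Igfbp3* lay at the floor on all clone arrays, so that the size of their differences depends on the floor. In fusion clones the called gene was *Myof*, which encodes a membrane repair protein. It stood at 13.57, 12.94 and 12.65 in 3 fusion clones, with the spot of replicate 2 marked as an outlier and left out, and at 14.83, 14.89 and 15.21 in females. It was 1.93 lower on the log2 scale (a difference of −1.93, SE 0.30, adjusted p = 0.0229), and 2.34 lower in injection clones without a call (−2.34, adjusted p = 0.0739). The call in fusion clones was lost without fusion replicate 3 or 4 or without female replicate 1 or 3 (adjusted p 0.0503 to 0.0758), and with the mean over all its probes the difference was −0.90 (adjusted p = 0.168).

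In injection clones the called target was *Ccnd1*, which encodes cyclin D1. It stood at 4.71 in injection replicate 1 and at the floor in the other 3, and at 8.20, 7.10 and 8.64 in females. The fitted difference was −3.80 (adjusted p = 0.0163), and −2.49 in fusion clones (adjusted p = 0.0748). The probe was well above background on 1 of 4 injection clones and 3 of 4 fusion clones, so that the size of both differences depends on the floor. The males stood at 4.20, 5.90 and 4.58, among the clones, and with all 6 IVF-derived embryos as controls the difference was −2.26 (adjusted p = 0.158). The call was also lost without injection replicate 2 (adjusted p = 0.0561) or 3 (adjusted p = 0.0558).

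The best-known targets of Yap1 in other cells, *Ccn1* (Cyr61) and *Ccn2* (Ctgf), encode secreted matrix proteins. *Ccn1* stood at 13.50, 12.64, 11.66 and 13.10 in fusion clones, at 11.38, 12.83, 12.24 and 11.43 in injection clones and at 14.25, 13.76 and 12.79 in females. *Ccn2* stood at 14.76, 12.85, 13.09 and 13.86 in fusion clones, at 14.43, 14.48, 12.41 and 13.78 in injection clones and at 13.11, 12.52 and 11.87 in females. The clones overlapped with the females for both genes, and the 2 targets lay on opposite sides of the females. The differences were −0.87 (adjusted p = 0.353) and −1.63 (adjusted p = 0.125) for *Ccn1*, and 1.14 (adjusted p = 0.23) and 1.27 (adjusted p = 0.257) for *Ccn2*, none past the threshold.

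*Cdx2* and *Gata3*, the trophectoderm genes that Tead4 switches on, were bright on all arrays. *Cdx2* stood at 15.46 to 15.76 in fusion clones, 15.03 to 15.90 in injection clones, 16.16 to 16.45 in males and 15.74 to 16.29 in females. *Gata3* stood at 15.54 to 15.71 in fusion clones, 15.18 to 16.05 in injection clones, 15.23 to 16.44 in males and 15.17 to 15.45 in females. For *Cdx2* the clones overlapped with females but all lay below all males, and for *Gata3* only the injection clones overlapped with females. The differences were −0.36 (adjusted p = 0.281) and −0.53 (adjusted p = 0.274) for *Cdx2*, and 0.31 (adjusted p = 0.26) and 0.39 (adjusted p = 0.41) for *Gata3*. *Eomes*, another trophectoderm factor, differed by 0.48 and 0.23, the keratin genes *Krt8* by −0.02 and −0.11 and *Krt18* by −0.47 and −0.59, and none of them was called. For *Krt18*, however, all clones (up to 18.27 in fusion and 18.13 in injection clones) lay below all IVF-derived embryos (from 18.305 in females and 18.48 in males).

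On the side of the inner cell mass, *Sox2*, which active Tead4 keeps off in outer cells, stood at 9.72 to 11.33 in fusion clones, 10.71 to 11.96 in injection clones and 10.37 to 10.97 in females. Its differences of −0.39 (adjusted p = 0.577) and 0.54 (adjusted p = 0.473) had opposite signs. The pluripotency gene *Pou5f1* differed by −0.42 and −0.20 and *Nanog* by 1.08 (adjusted p = 0.139) and 1.11 (adjusted p = 0.207), with no call. *Gata6*, a factor of primitive endoderm, was also not called.

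**Figure D4:**
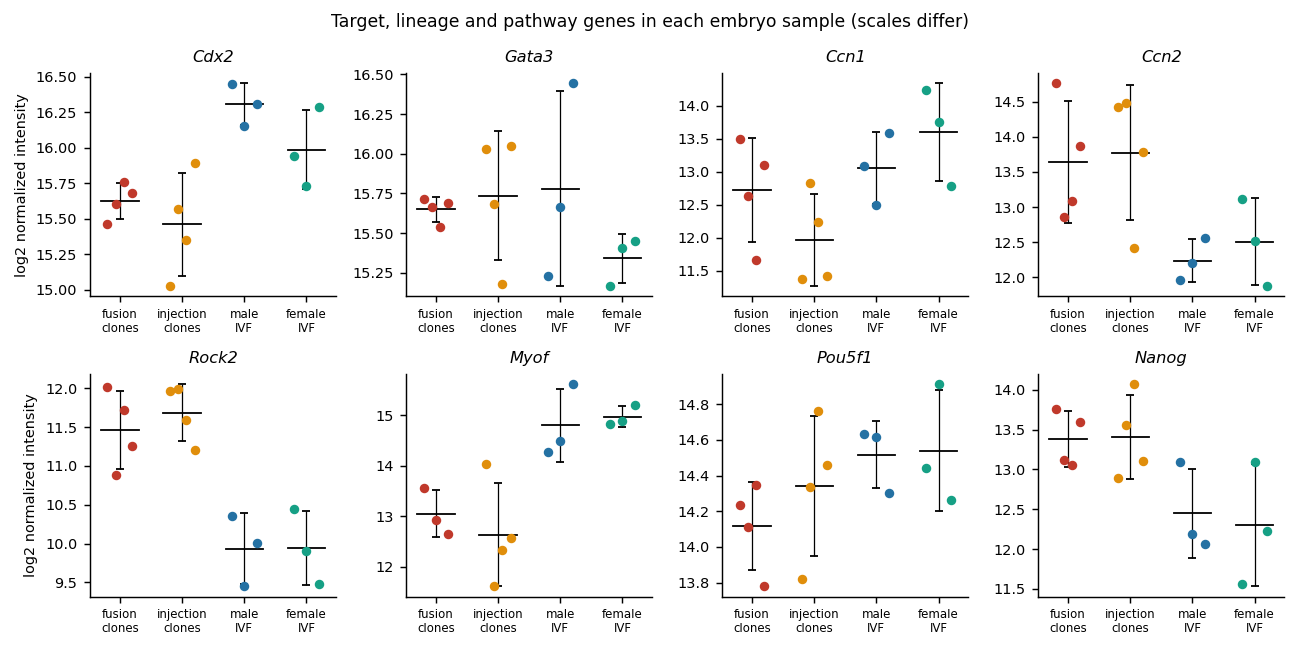
Log2 normalized intensity (y axis, a scale of its own in each panel) of 8 target, pathway and lineage genes in each sample, by group (x axis), with the mean and SD. The 8 clones lie above all IVF-derived embryos for *Rock2*, the 7 clones with a value lie below them for *Myof*, and the clones overlap with the female embryos for *Cdx2*, *Ccn1*, *Ccn2*, *Pou5f1* and *Nanog*.

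The counts by lineage list stand beside 9.47% of all probes called in fusion clones and 3.61% in injection clones. By lineage list, 1 of 15 trophectoderm genes tested was called in fusion clones (*Elf5*, −2.96) and 2 of 15 in injection clones (*Id2*, −1.12, and *Plac1*, −3.13), all lower. Of 8 epiblast genes, none was called by limma in fusion clones, with 2 at an unadjusted p below 0.05 against 27.2% of all probes. In injection clones 1 was called (*Zfp42*, 0.93 higher). Of 12 primitive endoderm genes, 2 were called in each, *Sox7* (−6.39) and *Foxa2* in fusion clones and *Lama1* (−4.43) and *Foxa2* in injection clones. *Foxa2* was not well above background on any clone array and was higher in females (adjusted p = 8.55e-05 and 8.98e-05 by limma). Against the lowest signal well above background on the clone arrays, it was 127-fold and 137-fold higher in females. That signal can itself lie at the floor, and all clone values of *Foxa2* lay there with no spread. These folds and p-values therefore depend on the floor. Leaving out 1 array ended the call of *Sox7* (without female replicate 3) and each call of *Zfp42* and *Lama1* (any array), *Id2* (any but injection replicate 4) and *Plac1* (any but injection replicate 4 and female replicate 1). Over all alternatives their adjusted p reached 0.136 for *Sox7*, 0.244 for *Zfp42*, 0.162 for *Lama1*, 0.194 for *Id2* and 0.159 for *Plac1*. The summed log2 level of the 11 primitive endoderm genes measured on all arrays was 17.43 to 17.97 in fusion clones, 17.20 to 17.68 in injection clones and 17.91 to 18.31 in females. Their mean log2 value, which counts genes at the floor such as *Foxa2* in clones, was 8.46 to 11.42 in fusion clones. It was 9.14 to 11.15 in injection clones and 12.43 to 13.16 in females. The part of this lineage in the differences of the Hippo genes was not tested.

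Correlations between members within groups took both signs. With each value set against its group's mean, the highest Pearson correlation over the 14 arrays among the 7 members well above background on all of them was 0.56, between *Tead4* and *Wwtr1*, and the lowest was −0.61, between *Lats2* and *Tead2*. *Yap1* correlated with *Tead4* at −0.34 and with *Wwtr1* at 0.01. Among 10676 probes searched, those most like *Tead4* in this way were *Cyth2* (r = 0.93), *Oplah* (r = 0.89) and *St14* (r = 0.88). Those most like *Yap1* were *Sde2* (r = 0.87), *Pou2f1* (r = 0.86) and *Tmem86a* (r = 0.85). The points share slides and normalization, the 3 genes are the highest of a large search, and the values describe these arrays only.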

How the data were processed

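Scanner files of 14 Agilent 1-color arrays were used. Per the file headers, the deposited intensities had been background-corrected by the authors with Agilent Feature Extraction (version 10.5.1.1 for the clones, 9.5.3.1 for the IVF-derived embryos) and were not normalized between arrays. The processed log2 table deposited by the authors, equals the log2 processed intensity less a shift per array and a center per probe, with column medians of −0.22 to 0.16, and served only as an alternative. The genome build of the probes is not given in the sources used here.

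Control spots and spots with an outlier mark were left out, leaving 41174 probes. Intensities were quantile normalized over all 14 arrays, as in the study's methods, raised to a floor of 16 and taken to log2, and spots of a probe were averaged. Names came from the files, and 32737 probes (79.51%) matched a RefSeq gene table. Groups were compared pairwise with limma 3.58.1 (R 4.3.3), with Benjamini-Hochberg adjustment over all probes tested, and 95% confidence intervals used the moderated degrees of freedom. The number of arrays limits the precision. The folds of *Foxa2* compare the females with the lowest signal well above background on the clone arrays, taken after the floor was applied. The genes, the pathway lists and the tests were chosen with earlier results of these data known. Genes outside the 10 are named where they were called or belong to a short list of lineage and target genes that were always given, and probe A_51_P473633 was named after its values were seen.

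Alternatives covered scaling, background, floor, detection filter, probe averaging, a joint fit of all groups, a replicate block, the methods' threshold, all 6 IVF-derived embryos as controls and leaving out each array. For male against female embryos, deviations of samples with the same replicate number correlated at 0.138, 0.169 and 0.166. The numbers may therefore pair these samples, although the titles give no more than a replicate number. The male and female values come from the fit without the block unless the block is named, and so ignore any such pairing. In the other comparisons the numbers do not pair the samples. Motifs were searched with Python 3.11.15 in RefSeq promoters, and figures were drawn with matplotlib 3.10.9.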

Additional observations from a re-analysis of the deposited data

How the results depend on the processing

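Of 716 differences of the 10 genes recomputed under the alternatives, 700 stayed on the same side of the threshold with any call in the same direction, 15 gained a call and 1 lost it, while differences near 0 that were never called, such as those of *Tead1*, *Tead4* and *Nf2*, changed sign under some settings. The lost call was that of *Yap1* in fusion clones with the replicate number as a block, at 1.55 (adjusted p = 0.127), where the numbers do not pair the samples and 0 probes and 0 members were called. In injection clones the block also left 0 probes, and in male against female embryos 0.

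In fusion clones the count of probes (3070) was 1236 with the mean over a gene's probes and 5544 at the methods' threshold, and the count of members was 3 at that threshold and 3 with all 6 IVF-derived embryos as controls. *Lats1*, at the floor in all IVF-derived embryos, was among the members in both. In injection clones (1183 probes, 0 members) the probes were 616 with the deposited values, 599 with a floor of 1, 1926 with a stricter detection filter, 774 without one, 614 with the mean over a gene's probes, 3092 with all 4 groups in 1 fit, 4613 at the methods' threshold and 2672 with all 6 IVF-derived embryos. Members called there were 2 with normexp, 2 with the stricter filter, 1 in the joint fit, 3 at the methods' threshold and 2 with 6 controls. Between clone types, 2 probes were called with the deposited values, 11 with a floor of 1, 1 in the joint fit and 773 at the methods' threshold. Between male and female embryos (19 probes) the count was 7 with normexp, 151 with the deposited values, 100 with a floor of 1, 56 with the stricter filter, 34 without a filter, 10 with the mean over probes, 206 in the joint fit, 7 with trend and robust fitting and 1870 at the methods' threshold. No other count moved by more than 1.5 times.

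Leaving out 1 array gave 1116 probes (without fusion replicate 2) to 2753 (without female replicate 2) and 1 to 2 members in fusion clones, the added member being *Lats1* without fusion replicate 1. *Lats1* lay at the floor in all females, so that this added call depends on the floor. It gave 162 (without injection replicate 2) to 1037 (without injection replicate 4) probes and 0 members in injection clones, 0 to 2 probes between clone types and 1 to 16 between male and female embryos. The deposited values moved the median clone difference of all probes by 0.30 and a floor of 1 by −0.10. With 3 or 4 arrays a group, and with *Tead3*, *Lats1* and a *Tead1* probe at or near background, small differences could not be resolved.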
